A study of Rattus norvegicus with 2 samples.

Results

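The genes described here are 52 rat genes of glycolysis and of the response to low oxygen, chosen by name. They comprise 4 glucose and lactate transporters, 15 glycolytic enzymes, 3 regulators of the PFKFB family, 5 genes of pyruvate dehydrogenase and its kinases, 2 glycogen enzymes, 8 regulators of the hypoxia-inducible factors (HIF) and 15 targets of HIF outside metabolism. Probes were assigned to them through the RefSeq accession that the array gives for each probe. This named 50 of the 52 among 15443 genes in all, and no probe was matched to Egln1 or Bhlhe41. Genes were called measured if either channel of a probe was flagged well above background, which held for 45 of the 52 members on the withdrawal array and 43 on the rBcl-2 array.

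The cells were primary neural precursor cells from the cortex of SD rat embryos at embryonic day 14, grown in N2 medium with 10 ng/mL of the mitogen bFGF. All cells had been nucleofected transiently with 4 µg of plasmid, so that every group, controls included, carried an MSCV-IRES-EGFP plasmid. On the withdrawal array the red channel (Cy5) held RNA of cells with the empty vector, without bFGF and in NB medium for 2 days, and the green channel (Cy3) held RNA of cells with the empty vector and bFGF. On the rBcl-2 array the red channel held RNA of cells with rBcl-2-MSCV-IRES-EGFP, which carries rat Bcl-2, an inhibitor of cell death, with bFGF, and the green channel again held RNA of cells with the empty vector and bFGF. The first array addresses differentiation against proliferation and the second Bcl-2 overexpression against proliferation. The share of cells that took up plasmid, any sorting of them and the number of cultures are not given in the sources used here. With a single array for each comparison and dyes not swapped, no difference between conditions could be tested and no p-value is given. Fewer cells of a type and less RNA per cell cannot be told apart in such bulk RNA.

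Glycolysis turns glucose into pyruvate in the cytosol, and lactate dehydrogenase turns pyruvate into lactate when it is not burnt in mitochondria. Dividing neural precursors are known for high glycolysis, which falls as neurons mature. HIF is a pair of a labile alpha subunit and ARNT: oxygen-dependent hydroxylases of the EGLN family mark the alpha subunit for VHL and destruction, and when oxygen is short the pair binds a short DNA core and activates glucose transport, most glycolytic enzymes and a set of signalling and chromatin genes.

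Each value below is the log2 ratio of red over green, so that a positive value is higher in the channel labelled vector without bFGF (withdrawal array) or rBcl-2 with bFGF (rBcl-2 array). The error beside it is the deposited error of the scanner software's own log ratio, turned to log2, which covers the noise of the spots and no difference between cultures. That software's ratio can lie farther from 0 in dim genes than the ratio printed here. Signals are intensities after background correction and normalization, in arbitrary units (a.u.), and are compared only within a probe. Which way the ratios run could not be settled. Over all 42877 gene spots the ratios of the arrays correlated at r = -0.67 (at -0.12 with the scanner software's own ratio), and over 26861 spots above background the log2 green signal of the rBcl-2 array differed from the withdrawal array's red signal with an SD of 0.136, but from its green signal, which bears the same label, with an SD of 0.402. Directions are therefore given as labelled, and counts and medians also with the sign turned. The labelled cell type was present in all channels: Nes, Sox2, Pax6, Fabp7, Vim, Prom1, Hes5 and Notch1, markers of neural precursors, were above background on both arrays.

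**Figure D1:**
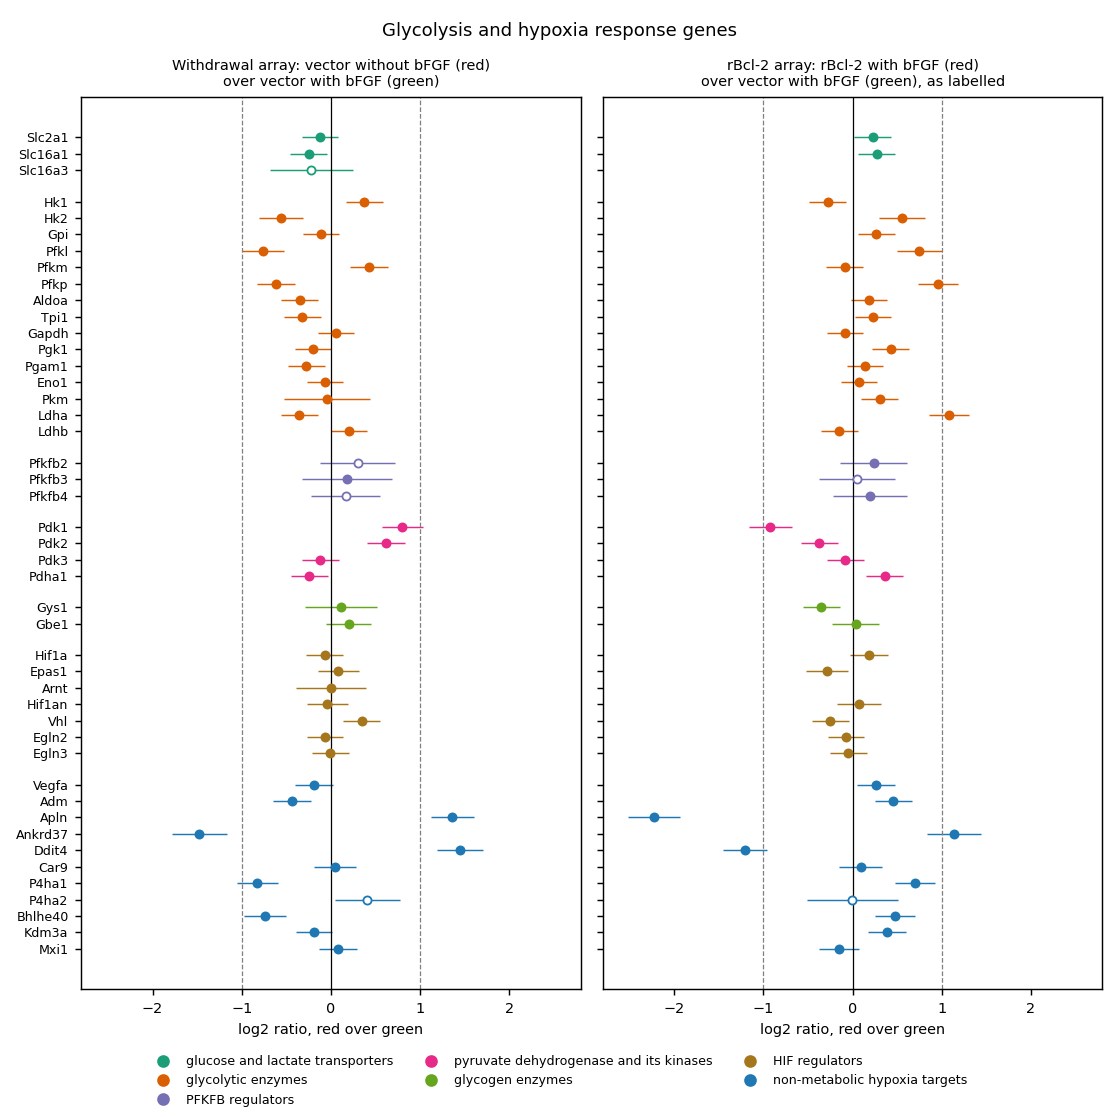
Log2 ratio of red over green (x axis) of every measured member, in rows grouped and coloured by role, on the withdrawal array (left) and the rBcl-2 array (right). Lines are the deposited error on the log2 scale, open points are genes above background in 1 channel only, and dashed lines mark 2-fold; Apln, Ddit4 and Ankrd37 lie past them on both arrays and Ldha on the rBcl-2 array.

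Members of the hypoxia response outside metabolism had the widest ratios on the withdrawal array. Apln, which encodes the secreted peptide apelin, was at 1.36 ± 0.24, and Ddit4, which encodes an inhibitor of mTORC1 induced by stress, was at 1.44 ± 0.26. Ankrd37, a small ankyrin-repeat gene that is a direct target of HIF, was at -1.48 ± 0.31. These were the members at least 2-fold apart with all probes of 1 sign: 2 of 45 were higher in vector without bFGF (4.44%), where 2.42% of all genes measured were, and 1 of 45 was lower (2.22%), where 0.47% of all genes were. With the sign turned, 1 would be higher and 2 lower. No transporter, glycolytic enzyme or HIF regulator was among them.

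On the rBcl-2 array Ldha, the lactate dehydrogenase subunit favoured in glycolytic cells, joined the same set. Ldha was at 1.08 ± 0.23 and Ankrd37 at 1.13 ± 0.30, while Apln was at -2.23 ± 0.29 and Ddit4 at -1.21 ± 0.25. Hence 2 of 43 measured members were at least 2-fold higher in rBcl-2 with bFGF (4.65%, against 0.557% of all genes) and 2 of 43 lower (4.65%, against 2% of all genes). Turning the sign leaves 2 higher and 2 lower and exchanges the genes. Both arrays bear the same label in green, and each comparison's values are set side by side without a test between them.

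At the milder limit of 0.5 on the log2 scale, 4 of 45 members were higher in vector without bFGF (8.89%, against 10.4% of all genes): the pyruvate dehydrogenase kinase genes Pdk1 and Pdk2, Apln and Ddit4. Lower were 6 of 45 (13.3%, against 4.52% of all genes): the glycolytic enzyme genes Hk2, Pfkl and Pfkp, and Ankrd37, P4ha1 and Bhlhe40. In rBcl-2 with bFGF 6 of 43 were higher (13.95%, against 3.53% of all genes), namely Hk2, Pfkl, Pfkp, Ldha, Ankrd37 and P4ha1. Lower were 3 of 43 (6.98%, against 8.7% of all genes), namely Pdk1, Apln and Ddit4. With the sign turned the withdrawal array has 6 higher and 4 lower, and the rBcl-2 array 3 higher and 6 lower.

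Glucose enters brain cells through the carriers of the SLC2A family, and lactate leaves or enters with a proton through those of the SLC16A family. Slc2a1, the glucose carrier GLUT1, was at -0.12 ± 0.20 on the withdrawal array and at 0.23 ± 0.21 on the rBcl-2 array. Its probe is printed 10 times, and its signal was 1149 a.u. in vector without bFGF and 1252 a.u. in vector with bFGF, and 1375 a.u. in rBcl-2 and 1176 a.u. in vector with bFGF on the other array. The lactate carrier gene Slc16a1 was at -0.25 ± 0.21 and 0.27 ± 0.21. Neither gene reached 0.5 on either array. Slc16a3, the lactate exporter of glycolytic cells, was above background only in the green channel of the withdrawal array, at least 1.17-fold lower in vector without bFGF, and was not well above background on the rBcl-2 array. Slc2a3, the neuronal glucose carrier GLUT3, was not well above background on either.

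The 15 glycolytic enzymes were all measured. Their median was -0.20 on the withdrawal array, with 4 above and 11 below 0, and 0.23 on the rBcl-2 array, with 11 above and 4 below. Turned in sign, the medians are 0.20 and -0.23. All genes measured had medians of 0.03 and -0.01, with quartiles of -0.16 and 0.25 on the withdrawal array and of -0.22 and 0.16 on the rBcl-2 array, so the enzyme medians lay just past the nearer quartile of all genes. It also depended on the normalization: with the ratios centred on the median and no loess curve, the enzymes and transporters together moved from a median of -0.21 to 0.134 on the withdrawal array, while the median of all genes moved to 0.17.

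The enzymes past 0.5 were a hexokinase, 2 phosphofructokinase subunits and a lactate dehydrogenase subunit, and on the withdrawal array other isoenzymes of these steps lay on the opposite side. Hexokinases trap glucose as glucose 6-phosphate. Hk2, the inducible form, had 148 a.u. in vector without bFGF and 218 a.u. in vector with bFGF, a ratio of -0.56 ± 0.25. On the other array it had 206 a.u. in rBcl-2 and 140 a.u. in vector with bFGF, a ratio of 0.55 ± 0.26. Its higher channel was thus green on the withdrawal array and red on the rBcl-2 array. With the scanner software's own ratio it passed 2-fold, at -1.18 and 1.11. Hk1, the constitutive hexokinase of brain, had 6050 a.u. in vector without bFGF and 4682 a.u. in vector with bFGF (0.37 ± 0.21), and 4488 a.u. in rBcl-2 and 5450 a.u. in vector with bFGF (-0.28 ± 0.20).

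Phosphofructokinase, built from liver (Pfkl), platelet (Pfkp) and muscle (Pfkm) type subunits, commits the sugar to glycolysis. Pfkp had 5998 a.u. in vector without bFGF and 9180 a.u. in vector with bFGF, a ratio of -0.61 ± 0.21. It had 10439 a.u. in rBcl-2 and 5398 a.u. in vector with bFGF on the other array, a ratio of 0.95 ± 0.22, just under 2-fold. Pfkl was read by 2 probes of 1 sign on each array. The first had 299 a.u. in vector without bFGF and 496 a.u. in vector with bFGF, and 513 a.u. in rBcl-2 and 272 a.u. in vector with bFGF. The second had 159 a.u. in vector without bFGF and 276 a.u. in vector with bFGF, and 272 a.u. in rBcl-2 and 182 a.u. in vector with bFGF. Both probes were thus higher in green on the withdrawal array and higher in red on the rBcl-2 array. The median over both probes was -0.76 ± 0.24 and 0.75 ± 0.25, and -1.21 and 1.44 with the scanner software's ratio. Pfkm lay the other way on the withdrawal array, at 0.43 ± 0.21, with 2547 a.u. in vector without bFGF and 1895 a.u. in vector with bFGF. It was at -0.09 ± 0.20 on the rBcl-2 array.

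The middle enzymes of the pathway had ratios under 0.5 in size. On the withdrawal array Gpi, which converts glucose 6-phosphate to fructose 6-phosphate, was at -0.11, Aldoa, the aldolase that splits the sugar, at -0.35, and Tpi1, which interconverts the triose phosphates, at -0.32. The genes of the pay-off steps lay between -0.28 and 0.06: Gapdh at 0.06, the kinase gene Pgk1 at -0.20, the mutase gene Pgam1 at -0.28 and the enolase gene Eno1 at -0.07. On the rBcl-2 array the same genes were at 0.27 (Gpi), 0.18 (Aldoa), 0.23 (Tpi1), -0.09 (Gapdh), 0.43 (Pgk1), 0.14 (Pgam1) and 0.08 (Eno1), each with a deposited error of 0.20 to 0.21. Gapdh, often used as a reference gene, had 3 probes between 0.03 and 0.14 on the withdrawal array. Under median centring without loess Gapdh moved to 0.459, Eno1 to 0.371, Pgk1 to 0.27, Gpi to 0.216, Pgam1 to 0.199 and Tpi1 to 0.014 on the withdrawal array, so that the sign of Eno1, Pgk1, Gpi, Pgam1 and Tpi1 was not settled there. That setting also turned Gapdh to 0.133 and moved Pgk1 to 0.759, past 0.5, on the rBcl-2 array. Pkm, pyruvate kinase, had a probe above background in both channels at -0.27 and another, above it in red only, at 0.18 on the withdrawal array, and was at 0.30 ± 0.21 on the rBcl-2 array.

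Lactate dehydrogenase is a tetramer of A and B subunits, of which A favours lactate and B pyruvate. Ldha had the widest ratio of the enzymes on the rBcl-2 array. It had 84942 a.u. in rBcl-2 and 40116 a.u. in vector with bFGF, and on the withdrawal array 59508 a.u. in vector without bFGF and 76036 a.u. in vector with bFGF, a ratio of -0.35 ± 0.21. The red signal of the rBcl-2 array was the highest of the 4 and its green signal the lowest, 0.57 on the log2 scale below the red signal of the withdrawal array. The value of -0.35 turned to 0.132 under median centring without loess. With the quotient of the columns of the authors' deposited value table, centred on its median, the 2-fold difference on the rBcl-2 array was 0.89, short of 2-fold. The median of all genes was -0.099 there. It was 0.047 with the scanner software's ratio, which put Ldha at 1.03. Ldhb was at 0.20 ± 0.21 and -0.15 ± 0.20. Ldhb minus Ldha was 0.56 on the withdrawal array and -1.23 on the rBcl-2 array, and between 0.51 and 0.58 and between -1.28 and -1.19 under the 8 other settings. Each of these genes had 1 probe, above background in both channels, so the settings that choose probes could not change the difference.

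**Figure D2:**
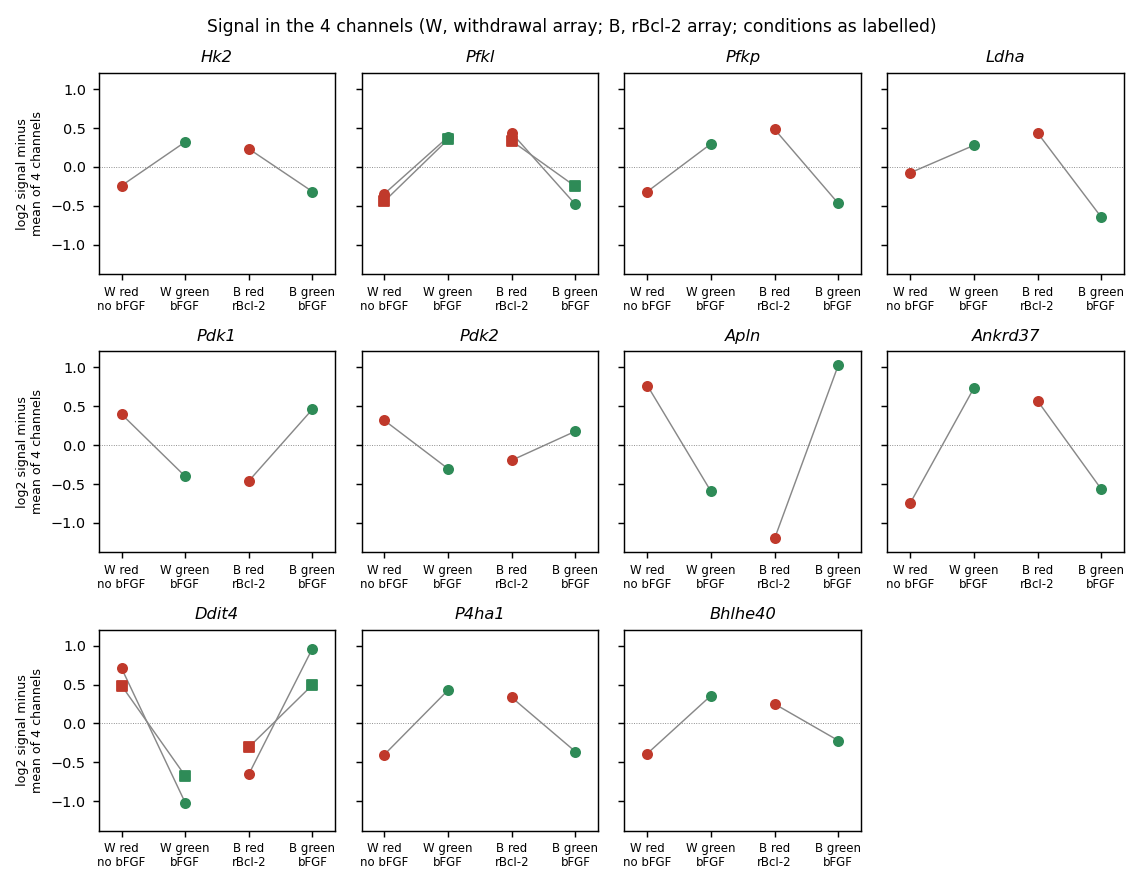
Log2 signal of each member with a ratio of at least 0.5 on either array (y axis, relative to the mean of the probe's 4 channels) in the red and green channels of the withdrawal array (W) and the rBcl-2 array (B), with circles and squares for different probes of a gene and grey lines joining the channels of an array. In each panel the green point of the rBcl-2 array lies on the same side of 0 as the red point of the withdrawal array, although the green points of both arrays bear the same label.

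Differences between isoenzymes of a step kept their direction on each array under the 8 other settings. Not all of these settings could change them. Hk1, Hk2, Pfkm and Pfkp each had 1 probe, above background in both channels, so the settings that choose probes left their values as they were. The value table differed from the scanner software's ratio by a constant shift, which cancels in a difference. The pairs were chosen after their values had been seen. Hk1 minus Hk2 was 0.93 on the withdrawal array (0.93 to 1.54 over the other settings) and -0.83 on the rBcl-2 array (-1.34 to -0.75). Pfkm minus Pfkp was 1.04 (1.01 to 1.05) and -1.04 (-1.13 to -1.04). Pfkm minus Pfkl was 1.19 (1.16 to 1.66) and -0.84 (-1.49 to -0.77). Turning the sign of an array turns the sign of each of its differences.

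The PFKFB enzymes make fructose 2,6-bisphosphate, the activator of phosphofructokinase. All 3 were close to background. Pfkfb2 was above background only in the red channel of the withdrawal array, at least 1.23-fold higher in vector without bFGF, and its 2 probes disagreed in sign on the rBcl-2 array. With this processing Pfkfb4 was likewise at least 1.12-fold higher in vector without bFGF and at 0.20 ± 0.41 on the rBcl-2 array. Pfkfb3, the form with the highest kinase activity, was at 0.18 ± 0.50 on the withdrawal array and at least 1.03-fold higher in rBcl-2. With the scanner software's ratio, to which the error belongs, Pfkfb2 was at 1.28 ± 0.42 and 1.18 ± 0.38 and Pfkfb3 at 0.85 ± 0.50 and 0.72 ± 0.42, so the size of their ratios depended on the processing. The value of 1.18 is a median of 2 probes that disagreed in sign with this ratio too, at -0.38 and 2.75. Pfkfb4 was at 0.02 ± 0.39 and 0.22 ± 0.41 with it. Under median centring without loess Pfkfb4 was at -0.137 on the withdrawal array, and Pfkfb3 at -0.094 there and at -0.012 on the rBcl-2 array. The direction of these 2 genes there was thus not settled, and the lower bounds hold for the main processing only.

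The kinases PDK1 to PDK4 switch off pyruvate dehydrogenase and so keep pyruvate from the mitochondria. Pdk1, a classical HIF target, had 417 a.u. in vector without bFGF and 240 a.u. in vector with bFGF (0.80 ± 0.23), and 230 a.u. in rBcl-2 and 436 a.u. in vector with bFGF (-0.92 ± 0.24). Pdk2 had 1881 a.u. in vector without bFGF and 1223 a.u. in vector with bFGF (0.62 ± 0.21), and 1319 a.u. in rBcl-2 and 1708 a.u. in vector with bFGF (-0.37 ± 0.21). Both lay on the side opposite to Hk2, Pfkl, Pfkp and Ldha on each array. Pdk1 passed 2-fold with the scanner software's ratio, at 1.07 and -1.31. Pdk3 was at -0.12 ± 0.21 and -0.08 ± 0.20, and Pdk4 was not well above background. Pdha1, the catalytic subunit of the complex, was at -0.24 ± 0.20 and 0.36 ± 0.21, with 2 probes of 1 sign.

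The glycogen enzymes departed little from 0. Gys1, glycogen synthase, had a probe above background in both channels at 0.36 and another, above it in red only, at -0.13 on the withdrawal array, and was at -0.35 ± 0.21 on the rBcl-2 array. Gbe1, the branching enzyme, was at 0.20 ± 0.25 and 0.03 ± 0.26.

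None of the HIF regulators reached 0.5 on either array with this processing. With the authors' deposited value table Epas1 did, at 0.568 and -0.523, and Vhl on the withdrawal array at 0.502, and under median centring without loess Vhl was at 0.633 there. The median of all genes was 0.157 and -0.099 with the value table, and 0.17 under median centring on the withdrawal array. With the scanner software's ratio, where the median of all genes was -0.017 and 0.047, Epas1 was at 0.39 and -0.38. The cause of these changes was not tested. With the main processing the HIF regulators had a median of -0.01 over 7 genes on the withdrawal array and -0.06 over 6 on the rBcl-2 array. With the sign turned these medians are 0.01 and 0.06. Hif1a, the alpha subunit of HIF-1, was at -0.07 ± 0.21 and 0.18 ± 0.21, and Epas1, the alpha subunit of HIF-2, at 0.08 ± 0.23 and -0.29 ± 0.24. Arnt, the shared partner, was at -0.00 ± 0.39 on the withdrawal array and not well above background on the other. The regulator farthest from 0 was Epas1 on the rBcl-2 array. On the withdrawal array it was Vhl, the substrate receptor of the ligase that marks HIF alpha for destruction. Vhl had 8962 a.u. in vector without bFGF and 7066 a.u. in vector with bFGF (0.34 ± 0.21), and 7100 a.u. in rBcl-2 and 8436 a.u. in vector with bFGF (-0.25 ± 0.20). The oxygen-sensing hydroxylase genes Egln2 (-0.07 and -0.08), Egln3 (-0.01 and -0.05) and Hif1an (-0.04 and 0.07) were closer to 0. These are transcript values, and the alpha subunits are controlled mainly as proteins.

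The non-metabolic targets held both the widest positive and the widest negative ratios. The 11 measured had a median of -0.19 and a range of -1.48 to 1.44 on the withdrawal array, and a median of 0.27 and a range of -2.23 to 1.13 on the rBcl-2 array. With the sign turned the medians are 0.19 and -0.27. The sign on the withdrawal array rested on which members were counted, since it became 0.059 when all 14 with a probe were kept. Car12, Ndrg1 and Stc2 were not well above background on either array.

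Apln had 6244 a.u. in vector without bFGF and 2430 a.u. in vector with bFGF, 2.57-fold higher. On the other array it had 1598 a.u. in rBcl-2 and 7479 a.u. in vector with bFGF, 4.68-fold lower. The signals fell into a high pair, red of the withdrawal array and green of the rBcl-2 array, and a low pair. Its probe is printed 10 times on each array, and the spots ranged from 1.31 to 1.44 on the withdrawal array and from -2.27 to -2.19 on the rBcl-2 array. That spread, an SD of 0.037 and 0.026, is printing and scanning noise within 1 hybridization.

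Ddit4 was read by 2 probes. The first had 3966 a.u. in vector without bFGF and 1198 a.u. in vector with bFGF, and 1541 a.u. in rBcl-2 and 4724 a.u. in vector with bFGF, ratios of 1.73 and -1.62. The second had 394 a.u. in vector without bFGF and 176 a.u. in vector with bFGF, and 227 a.u. in rBcl-2 and 396 a.u. in vector with bFGF, ratios of 1.16 and -0.80. Both probes thus had the sign of Apln on each array. Their median makes Ddit4 2.72-fold higher in vector without bFGF and 2.31-fold lower in rBcl-2.

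Ankrd37 lay on the opposite side. It had 135 a.u. in vector without bFGF and 377 a.u. in vector with bFGF, and 337 a.u. in rBcl-2 and 153 a.u. in vector with bFGF. It was therefore 2.79-fold lower in vector without bFGF and 2.19-fold higher in rBcl-2. Its 10 spots ranged from -1.65 to -1.26 and from 0.98 to 1.32, with SDs of 0.135 and 0.107, the widest among the members with repeat spots. With the scanner software's ratio the values were -2.43 and 2.29.

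P4ha1, a collagen prolyl hydroxylase, had 458 a.u. in vector without bFGF and 812 a.u. in vector with bFGF (-0.83 ± 0.23), and 761 a.u. in rBcl-2 and 470 a.u. in vector with bFGF (0.70 ± 0.22). Bhlhe40, a transcriptional repressor of the clock and of differentiation, had 214 a.u. in vector without bFGF and 358 a.u. in vector with bFGF (-0.75 ± 0.23), and 332 a.u. in rBcl-2 and 240 a.u. in vector with bFGF (0.47 ± 0.22). Both had the sign of Ankrd37 on each array and passed 2-fold on the withdrawal array with the scanner software's ratio, at -1.14 and -1.18. Adm, which encodes the vasodilator peptide adrenomedullin, was at -0.44 ± 0.21 and 0.46 ± 0.21, with SDs of 0.023 and 0.017 over its 10 spots. Vegfa, the main angiogenic factor, was at -0.19 ± 0.21 and 0.27 ± 0.21 over 4 probes, and Kdm3a, a histone demethylase, at -0.19 ± 0.21 and 0.38 ± 0.21. Car9, a carbonic anhydrase that marks hypoxic tumours, was near 0 at 0.04 ± 0.23 and 0.09 ± 0.24, and so was Mxi1, a MYC antagonist, at 0.08 ± 0.21 and -0.15 ± 0.22. P4ha2 was above background only in the red channel of the withdrawal array, at least 1.33-fold higher in vector without bFGF, and only in the green channel of the rBcl-2 array.

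**Figure D3:**
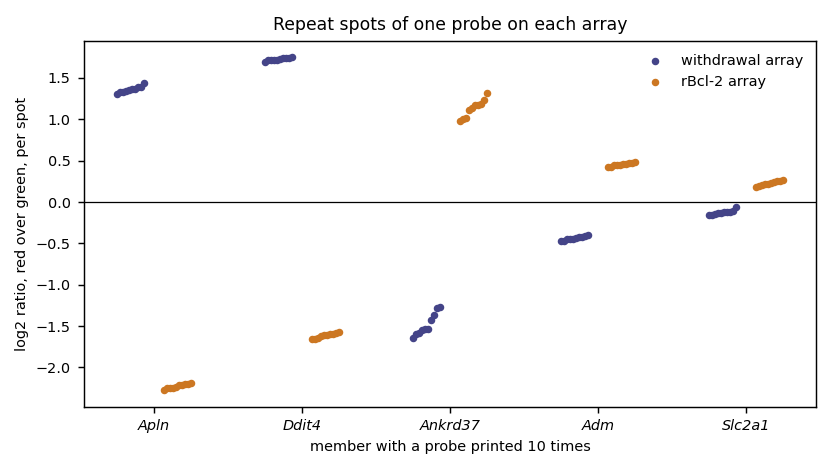
Log2 ratio of red over green of each single spot (y axis) for the 5 members with a probe printed 10 times, sorted by value within an array. The spots of Apln, Ddit4 and Ankrd37 keep to 1 side of 0 on each array, and those of Ankrd37 spread most.

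The promoters of the genes at least 2-fold apart are shown because HIF binds the core (A or G)CGTG, so their sequences show which of them hold that core close to the start. They come from RefSeq's table for build GRCr8, not the build named on the arrays, and each gives the 250 bases before the gene's start, 5′ to 3′ on the gene's strand. Capitals mark every ACGTG and GCGTG on either strand; the palindrome CACGTG holds ACGTG on both strands and counts on each. Ldha is at chr1:106507842-106508091 (+), Ankrd37 at chr16:53001257-53001506 (+), Ddit4 at chr20:28437038-28437287 (-) and Apln at chrX:132091247-132091496 (-).
Ldha: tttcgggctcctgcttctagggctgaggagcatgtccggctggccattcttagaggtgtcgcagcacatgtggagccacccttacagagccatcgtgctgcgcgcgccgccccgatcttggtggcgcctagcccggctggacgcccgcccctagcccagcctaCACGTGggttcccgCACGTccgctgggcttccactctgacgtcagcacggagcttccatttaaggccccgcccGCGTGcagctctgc
Ankrd37: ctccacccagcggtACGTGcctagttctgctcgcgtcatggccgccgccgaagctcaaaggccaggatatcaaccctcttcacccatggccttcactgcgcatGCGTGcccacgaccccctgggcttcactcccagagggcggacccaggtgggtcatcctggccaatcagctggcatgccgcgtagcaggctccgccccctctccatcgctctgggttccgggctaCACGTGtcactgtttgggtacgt
Ddit4: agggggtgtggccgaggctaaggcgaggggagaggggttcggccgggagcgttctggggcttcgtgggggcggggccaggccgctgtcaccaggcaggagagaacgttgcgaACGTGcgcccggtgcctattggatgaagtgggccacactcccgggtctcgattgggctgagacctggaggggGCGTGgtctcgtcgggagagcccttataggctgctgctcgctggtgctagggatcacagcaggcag
Apln: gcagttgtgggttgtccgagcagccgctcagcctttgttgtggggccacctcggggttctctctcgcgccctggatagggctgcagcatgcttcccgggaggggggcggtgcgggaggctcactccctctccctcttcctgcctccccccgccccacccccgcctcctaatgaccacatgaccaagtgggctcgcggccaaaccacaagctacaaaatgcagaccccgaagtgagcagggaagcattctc
The Ldha window held 4 cores, at 87, 86, 73 and 14 bases before the start, and the Ankrd37 window 4, at 236, 147, 23 and 22 bases. The Ddit4 window held 2, at 138 and 66 bases, and the Apln window none. Ddit4 and Ankrd37 both held cores and lay on opposite sides of 0 on each array.

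Windows were found for 49 of the 52 members. A core stood in 27 of them (55.1%), against 36.7% of 33469 promoters in the table, and ACGTG in 17 (34.7%), against 16.6%. The member windows also held more G and C, 62.7% against 52.2% of bases, and were chosen as hypoxia genes in the first place. By role, cores stood in 8 of 14 windows of glycolytic enzymes, 3 of 8 of HIF regulators and 7 of 14 of non-metabolic targets. Of the enzymes past 0.5, Pfkl and Ldha had 2 and 4 cores, Pfkp 1 and Hk2 none. A match is a description of letters, and a window without one says only that these letters are not in it.

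Set side by side, transporters and enzymes had a median of -0.21 (4 above and 14 below 0), HIF regulators of -0.01 (2 above and 5 below) and non-metabolic targets of -0.19 (5 above and 6 below) on the withdrawal array. On the rBcl-2 array these medians were 0.23 (13 above and 4 below), -0.06 (2 above and 4 below) and 0.27 (7 above and 4 below). Turned in sign they are 0.21, 0.01 and 0.19, and -0.23, 0.06 and -0.27. With this processing the median of the HIF regulators was the nearest to 0 on both arrays, and non-metabolic targets had the widest range, since Apln and Ddit4 stood against Ankrd37, P4ha1 and Bhlhe40. Under median centring without loess the 3 withdrawal medians were 0.134, 0.139 and 0.014 beside 0.17 for all genes, so on that array the order of the groups was not settled. They were 0.344, -0.166 and 0.154 on the rBcl-2 array, beside -0.073 for all genes. HIF regulators then lay farther from 0 than non-metabolic targets, but nearer the median of all genes (-0.093 against 0.227 from it). They were also the nearer to it on the withdrawal array under that setting (-0.031 against -0.156). On the rBcl-2 array, transporters and enzymes stood above the median of all genes by 0.26 with the scanner software's ratio and by 0.42 under median centring.

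In the member probes each channel of the rBcl-2 array was nearer the opposite channel of the withdrawal array than the same channel. Over 55 probes above background on both arrays, the green signal of the rBcl-2 array differed from the green signal of the withdrawal array by a median of 0.275 on the log2 scale, without regard to sign, and from the red signal of the withdrawal array by 0.091. At least 2-fold apart were 4 probes in the first of these comparisons and none in the second. For 47 of the 55 the green signal of the rBcl-2 array was nearer the red signal of the withdrawal array, and the same held for 72.3% of 12064 named probes. The red signal of the rBcl-2 array differed from the red and green signals of the withdrawal array by medians of 0.246 and 0.101. Apln and Ldha departed most from this: the red signal of the rBcl-2 array was 0.61 lower than the green signal of the withdrawal array for Apln, and the green signal of the rBcl-2 array was 0.57 lower than the red signal of the withdrawal array for Ldha.

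Sums of cell type markers differed between channels as well. Each sum took the brightest probe of every listed gene with a probe, genes not above background included. The counts beside the sums are of markers measured. The astrocyte markers, 7 of 8 measured and Gfap not above background, had a summed signal of 87912 a.u. in vector without bFGF and 45742 a.u. in vector with bFGF, and of 51059 a.u. in rBcl-2 and 88741 a.u. in vector with bFGF. Those of fibroblasts and meninges, 7 of 7 and then 6 of 7, summed to 9430 a.u. in vector without bFGF and 5482 a.u. in vector with bFGF, and to 3171 a.u. in rBcl-2 and 8869 a.u. in vector with bFGF. Neural precursor markers, 8 of 9, summed to 261018 a.u. in vector without bFGF and 193432 a.u. in vector with bFGF, and to 202655 a.u. in rBcl-2 and 280986 a.u. in vector with bFGF. Neuron markers, 5 of 7 with Syt1 not above background, summed to 8318 a.u. in vector without bFGF and 6052 a.u. in vector with bFGF, and to 7229 a.u. in rBcl-2 and 7271 a.u. in vector with bFGF. Oligodendrocyte lineage markers, 7 of 8 with Mog not above background, summed to 116783 a.u. in vector without bFGF and 97755 a.u. in vector with bFGF, and to 116301 a.u. in rBcl-2 and 103358 a.u. in vector with bFGF. Markers of microglia and blood, 5 of 8, summed to 1887 a.u. in vector without bFGF and 1932 a.u. in vector with bFGF, and to 2144 a.u. in rBcl-2 and 1839 a.u. in vector with bFGF. Red was thus higher on both arrays for the oligodendrocyte lineage. Microglia and blood ran opposite to astrocytes, but only by 1887 against 1932 a.u. on the withdrawal array. Their sums include genes not above background. The sums for astrocytes, fibroblasts and precursors were higher in the channels where Apln, Ddit4, Pdk1 and Hk1 were higher, and the part of any of these cell types in the results was not tested. The precursor markers were not of 1 sign. On the withdrawal array 6 were above and 2 below 0, and on the rBcl-2 array 2 above and 6 below. Vim, at -0.49 and 0.56, ran opposite to the precursor sum on both arrays. Sox2 (-0.12 and -0.27) and Hes5 (0.61 and 0.09) did so on 1 array each. Of 8 endothelial and pericyte markers Pecam1, Cldn5, Tek, Flt1 and Rgs5 were not above background, and of 8 for microglia and blood Itgam, Ptprc and Hbb were not.

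**Figure D4:**
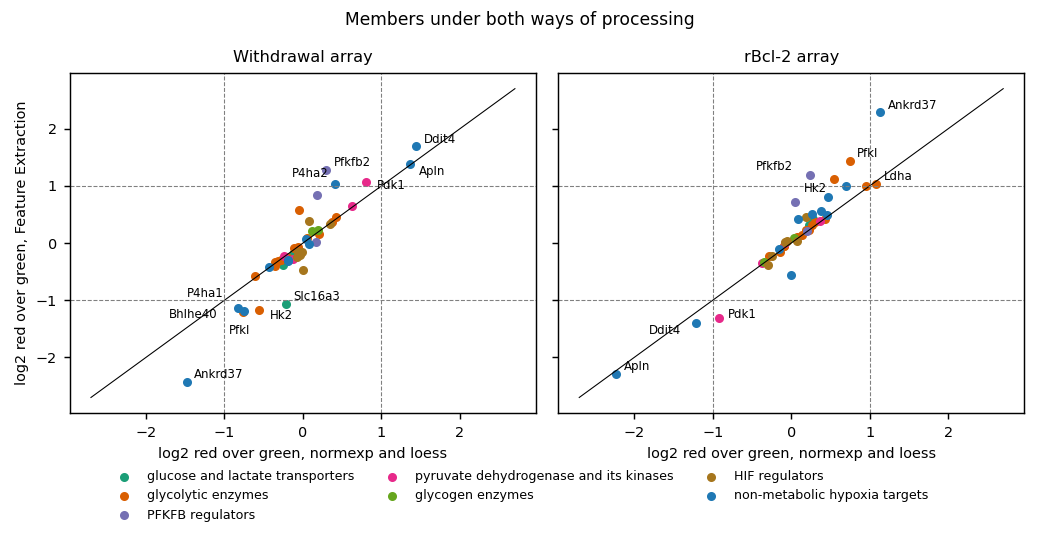
Log2 ratio of red over green of each measured member with the scanner software's own ratio (y axis) against the ratio after normexp background correction and loess (x axis), coloured by role, with the diagonal and dashed lines at 2-fold. Apln and Ldha lie near the diagonal, while Ankrd37, Hk2, Pfkl and Pfkfb2 lie farther from 0 with the scanner software's ratio.

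Related genes outside the members were counted by list. Of 25 other glycolysis genes 16 were measured on the withdrawal array and 15 on the rBcl-2 array, with medians of 0.08 and -0.12 and none at least 2-fold apart. The 7 measured pentose phosphate genes had medians of 0.01 and 0.09, and 9 measured other HIF pathway genes -0.10 and 0.03, again with none at 2-fold. Among 9 genes of mitochondrial pyruvate entry, Pc, pyruvate carboxylase, which fills up the citric acid cycle and is mainly astrocytic in brain, was at 1.22 ± 0.24 and -1.12 ± 0.23, while the list's medians were -0.10 and -0.03. Among 12 other glycogen genes, Ppp1r3c, a subunit that targets protein phosphatase to glycogen and is also a hypoxia target, was at 1.67 ± 0.26 and -1.003 ± 0.22, with list medians of 0.17 and -0.21.

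Among 25 other hypoxia targets, with medians of 0.03 and -0.12, the genes past 2-fold again lay on both sides. Tfrc, the transferrin receptor for iron uptake, was at -1.24 ± 0.26 and 1.21 ± 0.26, and Jmjd6, a hydroxylase of the nucleus, at -1.17 ± 0.24 and 0.89 ± 0.23. Igfbp3, a secreted binding protein of insulin-like growth factors, was at 0.87 ± 0.22 and -1.52 ± 0.25. Each of these values, and each median of the related lists, would change sign if its array were turned.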

How the data were processed

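RNA of rat neural precursor cells was read on 2 Agilent 2-colour arrays on 1 slide, in 1 scan. Per the file headers, the deposited spot and local background signals are intensities (median over pixels, not normalized), made with Feature Extraction 11.5.1.1, protocol GE2_1105_Oct12, array design 028282 and build rn4. Version 8.5.1.1 is named in the submitters' processing notes. The deposited log10 ratio of processed signals and its error, per the file headers, were turned to log2. The deposited p-value of that ratio, per the file headers from a spot noise model, was not used for calls. The deposited flags mark control, outlier, saturated and well-above-background spots. The value table that the authors deposited gives linear ratios with scale, centring and direction unstated and column medians of 0.932 and 0.944. Its first column matched the withdrawal array (100.0% of 28395 probes within 0.05 on the log2 scale after a constant shift). Its second did so for 7.06% with the rBcl-2 array but for 100.0% with the 2 arrays' product, so the quotient of the columns served for the rBcl-2 array. As a setting, the log2 values from this table were centred on their median over all probes of an array.

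Median signals were background-corrected (normexp, offset 50), normalized by loess within each array with control spots at weight 0, and scaled between arrays for single-channel signals (Aquantile), with limma 3.58.1 in R 4.3.3. Of 42877 gene spots per array, 534 and 576 outliers were left out and 0 were saturated. Probes well above background in at least 1 channel were kept (20328 and 19026, in 10852 and 10241 named genes), repeat spots were averaged, and a gene's value is the median over its probes. Median net intensity was 284.5 in red and 189 in green on the withdrawal array, and 266 and 201 on the rBcl-2 array. Repeat spots had a median SD of 0.039 and 0.038 on the log2 scale. A gene counts as 2-fold where the absolute log2 ratio is at least 1 and its probes share a sign. For a gene above background in 1 channel, the fold is a lower bound under the main processing only. It was taken against that array's lowest signal flagged well above background or the gene's own signal in the other channel, whichever was greater. Normalization was tested on simulated spots with known log2 ratios, with a pass limit for bright spots only. With 1 array per comparison there is no replicate and no p-value, and the number of arrays limits the precision.

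The members and lists were chosen with earlier results of these data known. Members with an absolute log2 ratio of at least 0.5 on either array are given with all channels, and genes of 6 related lists are named at 1 or more, besides Aldoc, Eno2, Eno3 and Cxcr4, which were picked after their values were seen. Alternatives were an offset of 10, plain subtraction with a floor of 1, median centring without loess, the deposited log ratio, the value table, probes above background in both channels, no filter and the brightest probe. Figures were drawn with matplotlib 3.10.9 in Python 3.11.15.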

Additional observations from a re-analysis of the deposited data

Results flagged for a closer look

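Apln, Ankrd37 and Ddit4 lay at least 2-fold from 0 in opposite directions on the 2 arrays. Apln was at 1.36 on the withdrawal array and at -2.23 on the rBcl-2 array. Ankrd37 was at -1.48 on the withdrawal array and at 1.13 on the rBcl-2 array. Ddit4 was at 1.44 on the withdrawal array and at -1.21 on the rBcl-2 array. The difference between the arrays was not tested, since each has 1 hybridization, and with the sign of 1 array turned each gene would lie on the same side on both.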

How the results depend on the processing

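Each value was recomputed under 8 other settings. For a gene with 1 probe above background in both channels, such as Apln and Ankrd37, the settings that choose probes could not change its ratio. The value table repeats the scanner software's ratio but for a constant shift. Apln and Ddit4, at least 2-fold higher in vector without bFGF and lower in rBcl-2, and Ankrd37, at least 2-fold lower in vector without bFGF and higher in rBcl-2, kept these calls under all 8, and no ratio past 0.5 changed sign under any of them, while Ldha, past 0.5 on the rBcl-2 array only, changed sign on the withdrawal array under median centring. Under the scanner software's ratio 5 of 45 members were at least 2-fold higher and 6 lower in vector without bFGF. With rBcl-2, 4 of 43 were higher, where 3.5% of all genes were. Lower there were Pdk1, Apln and Ddit4, where 6.74% of all genes were. The non-metabolic targets had a median of 0.490 with the scanner software's ratio on the rBcl-2 array. That ratio moved the fold of 7 members on the withdrawal array and 4 on the rBcl-2 array by over 1.5 times, among them Ankrd37 on both, and it raised the share of all genes called higher in vector without bFGF to 8.17% (lower, 2.18%). With the authors' deposited values in place of the scanner files, 6 of 43 members were higher in vector without bFGF, where 10.5% of all genes were. Lower were 4 of 43, where 1.35% of all genes were, and Ldha was no longer at 2-fold in rBcl-2. Median centring without loess gave transporters and enzymes a median of 0.134 on the withdrawal array, and there 16 of 45 members changed sign, against 6 of 43 on the rBcl-2 array. The median of all genes on the withdrawal array went from 0.03 to 0.17 under that setting. Above the median of all genes lay 18 members with the main processing and 16 under median centring. Without the filter on dim probes the non-metabolic targets had a median of 0.059 on the withdrawal array. Turning an array exchanges its higher and lower counts and shares and turns the sign of its medians. The cause of these changes was not tested, except that the last keeps more genes. Of all genes, 263 passed 2-fold upwards and 51 downwards in vector without bFGF, and 57 higher and 205 lower in rBcl-2. These counts were 887, 237, 358 and 690 with the scanner software's ratio, 1132, 145, 274 and 831 with the authors' deposited values, 445, 91, 76 and 271 with an offset of 10, and 473, 34, 48 and 271 with median centring. Plain subtraction gave 89 higher in rBcl-2, against 57. No paired analysis was possible because each comparison has 1 array. Dim genes (Hk2, Pfkfb2, Pfkfb3, Pfkfb4, Slc16a3, P4ha2, Ankrd37) are limited by their signal over background.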

Other observations

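Some forms of glycolytic enzymes outside the members stood apart from the member of the same step. Aldoc, the aldolase of astrocytes, was at 0.78 ± 0.22 on the withdrawal array and -0.69 ± 0.21 on the rBcl-2 array, so that Aldoc minus Aldoa was 1.13 and -0.87. Eno3, the muscle-type enolase, was at 0.72 ± 0.21 and -0.74 ± 0.22, and Eno3 minus Eno1 was 0.79 and -0.81. Eno2, the neuronal enolase, stood less apart: Eno2 minus Eno1 was 0.40 and -0.26, and on the withdrawal array it ranged from 0.11 to 0.65 over the other settings. Aldoc is also on the list of astrocyte markers, whose 7 measured genes were all above 0 on the withdrawal array and all below 0 on the rBcl-2 array, with medians of 0.78 and -0.75. Cxcr4, a chemokine receptor among the other hypoxia targets, lay just short of 2-fold at 0.997 ± 0.24 and -0.86 ± 0.24. These genes were picked after their values had been seen.

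In the authors' deposited value table, the column that bears the name of the rBcl-2 sample held the product of both arrays' ratios. On the log2 scale it put Apln at -0.90, Ankrd37 at -0.14, Ddit4 at 0.30 and Ldha at 0.63. The rBcl-2 array itself gave -2.23, 1.13, -1.21 and 1.08 for them in that order after normexp and loess. With the scanner software's own ratio, the like measure, it gave -2.29, 2.29, -1.40 and 1.03. Over 39 members above background in all channels the sum of the log2 ratios of both arrays had a median of 0.02, with Apln lowest at -0.87 and Ldha highest at 0.73. These were the 2 members with a sum of at least 0.5 without regard to sign (5.13%), against 2.64% of 9434 genes.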
